A study of Mus musculus with 8 samples.

Results

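The genes described here are 10 regulators of translation in germ cells, measured in synchronized mouse testes: Dazl, Boll, Ybx2, Ybx3, Ddx25, Cpeb1, Cpeb2, Pabpc1, Celf1 and Nanos1. They were taken by gene symbol from a table of 54532 genes, and all 10 were present and passed the filter on low values that left 12141 protein-coding genes for the test. RNA-seq had been performed on whole testes of 4 control (Sync-Spdya fl/fl) and 4 conditional knockout (Sync-Spdya cKO) mice, 1 library each. Both groups carried Spdya alleles in which loxP sites flank exon 2, and only the Sync-Spdya cKO mice, of genotype Spdyafl/fl;Ddx4-CreERT2, also carried the tamoxifen-dependent Cre recombinase, which is driven from the germ cell gene Ddx4. In both groups spermatogenesis had been synchronized in juvenile males by blocking retinoic acid synthesis with an inhibitor given to the pups and then restoring retinoic acid (RA), so that age is counted in days after RA. According to the labels both groups received tamoxifen at RA7.5 and RA8.5, and testes were collected at RA11.5, a time that the study describes as mid-late pachynema, when homologous chromosomes are fully synapsed. Since the controls lacked Cre, effects of the recombinase and of the deletion cannot be told apart. Spdya encodes a telomere-associated activator of CDK2, and the study asked whether its loss disturbs the silencing of the sex chromosomes. The question here is whether the RNAs of translational regulators differed between these testes.

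Spermatocytes transcribe many messages well before their proteins are needed, and RNA-binding proteins hold these messages inactive, protect them or recruit them to ribosomes. DAZL and BOLL bind 3′ untranslated regions (3′ UTRs) and promote translation in germ cells, and CPEB proteins bind a U-rich cytoplasmic polyadenylation element (CPE) and regulate the length of the poly(A) tail. YBX2 and YBX3, known in mouse as MSY2 and MSY4, package stored messages, and DDX25 is an RNA helicase that is required to complete spermiogenesis. PABPC1 covers the poly(A) tail, CELF1 binds GU-rich messages, and NANOS1 belongs to a family of translational repressors that work with Pumilio proteins.

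The 3′ UTRs of the 10 messages are shown first, because this is where most of these proteins bind their targets. For each gene the 3′ UTR of 1 transcript of GENCODE vM21 (GRCm38) was searched on the sense strand for the CPE hexamer TTTTAT, written as DNA, and all 10 contained it at least once. Of the 12034 tested genes with an annotated 3′ UTR, 53.3% contained it. The 30 bases around the copy nearest to the 3′ end are printed 5′ to 3′ on the strand of the gene, with the hexamer in capitals:

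Dazl: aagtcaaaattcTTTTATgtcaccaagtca
Boll: aaatatcctttcTTTTATgtaataaattta
Ybx2: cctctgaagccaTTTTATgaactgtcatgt
Ybx3: tttaagaagaaaTTTTATgcccttatttat
Ddx25: caataaagatattaacctTTTTATtgaaaa
Cpeb1: cttccttacaacTTTTATttgacgaatgta
Cpeb2: taatttagtttaTTTTATtgttatcttcca
Pabpc1: aacaaattaatgTTTTATagaccctgggaa
Celf1: cctgtgtgagttTTTTATtggtacaaacgt
Nanos1: caaacttgctagTTTTATcggctttttact

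These windows lay at chr17:50279752-50279781 (minus strand) for Dazl, chr1:55346264-55346293 (minus) for Boll, chr11:69941532-69941561 (plus) for Ybx2, chr6:131364956-131364985 (minus) for Ybx3 and chr9:35536647-35536676 (minus) for Ddx25. The others lay at chr7:81347332-81347361 (minus) for Cpeb1, chr5:43289554-43289583 (plus) for Cpeb2, chr15:36595837-36595866 (minus) for Pabpc1, chr2:91018901-91018930 (plus) for Celf1 and chr19:60759781-60759810 (plus) for Nanos1. The hexamer began 12 bases before the end of the 3′ UTR in Ddx25, 25 bases in Boll and 62 bases in Ybx2, and at most 585 bases before it, in Celf1. The last polyadenylation signal, AATAAA, began 29 bases before the end in Ddx25, so that hexamer lay after the signal. It began 17 bases before the end in Boll, after the hexamer, and 1568 bases before it in Celf1. The 3′ UTR of Ybx2 held no AATAAA.

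The number of hexamers depended on the length of the 3′ UTR, so each gene was set beside tested genes whose 3′ UTR was within 25% of its own length. The 3′ UTR of Boll was only 109 bases long and held 3 hexamers, where 11.6% of the 493 genes of that length held any. The principal Boll transcript has no annotated 3′ UTR, so this one belongs to a shorter isoform. The printed Boll window, at chr1:55346264-55346293, lies far from the 3′ end of the gene, which is at chr1:55248658. This count therefore does not describe a 3′ UTR at the annotated 3′ end of Boll. Ybx2 (414 bases), Pabpc1 (439 bases) and Ybx3 (584 bases) held 1 hexamer each, where 33.6%, 34.8% and 40.4% of genes of their lengths held any. Cpeb2, which encodes a CPE-binding protein, had the most, with 20 hexamers in 3778 bases, a length at which 89.1% of genes held any. In the wider class of 3′ UTRs above 3200 and up to 6400 bases the mean count was 4.17. Cpeb1, whose protein is the founding CPE-binding protein, held 2 in 1315 bases. Dazl held 5 in 1852 bases and Nanos1 4 in 2845 bases. At the lengths of Cpeb1, Dazl and Nanos1, 63.3%, 74.6% and 85.4% of genes held any. Celf1 (6132 bases) held 5 and Ddx25 (5351 bases) held 2, and at these lengths 96.5% and 94.2% of genes held the hexamer. A longer form of the element, TTTTAAT, was found in 6 of the 10 against 28.9% of tested genes of all lengths. The Pumilio element TGTANATA was found in 4 of the 10 (Ddx25, Cpeb1, Cpeb2 and Nanos1) against 24.5%. Both can share only an end base with the hexamer. Among genes of matched length the Pumilio share was 60.1% for Ddx25, 26.6% for Cpeb1, 49.5% for Cpeb2 and 44% for Nanos1. It was 3.25% (Boll) to 67.1% (Celf1) for the members without the element. TTTTAAT was not compared at matched length. The polyadenylation signal AATAAA, which cannot overlap the CPE, was found in 9 of the 10 against 80.8%. A match of letters is not evidence of binding.

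**Figure D1:**
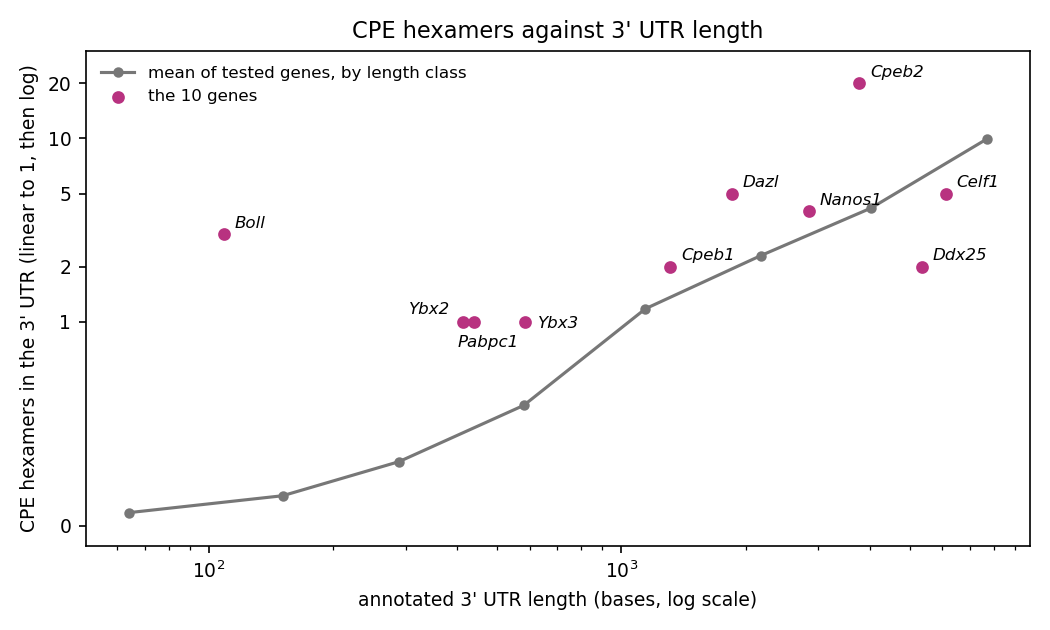
CPE hexamers (TTTTAT) in the annotated 3′ UTR (vertical axis, linear up to 1 and logarithmic above) against its length in bases (logarithmic axis). Each magenta point is 1 of the 10 genes. The grey line joins the mean of all tested genes in 8 length classes at the median length of the class. Boll and Cpeb2 lie far above the line, and Ddx25 lies below it. The Boll 3′ UTR is that of a shorter isoform and lies far from the 3′ end of the gene.

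The deposited values are FPKM, fragments adjusted for gene length and library size, so levels can be compared between genes. Fragments recovered from them ranged from 13978342 to 19583091 per library. The mitochondrial share was 0.464% in control replicate 1 and 2.20% to 3.74% in the other 7 libraries, so control replicate 1 stood apart, and the log2 fold changes of the 10 genes are also given without it. Spdya itself had 20.8, 21.0, 23.8 and 19.7 FPKM in the fl/fl testes and 30.5, 22.2, 26.1 and 17.7 FPKM in the cKO testes. These values count the whole gene while 1 exon was deleted, and they do not check the labels.

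The 10 messages covered a wide range of abundance. Ybx2 had a mean of 638 FPKM in the fl/fl testes and 549 FPKM in the cKO testes and ranked 15 among all protein-coding genes over the 8 libraries. Nanos1, at the other end, had 3.18 and 3.63 FPKM, from 146 to 260 fragments per library, and lay at percentile 19.8 of the tested genes. Ybx2 exceeded Pabpc1, the next in order, in 8 of 8 libraries without overlap of their ranges, and Pabpc1 exceeded Ybx3 in 8 of 8. Ybx3 and Dazl could not be ordered beyond their spread, with Ybx3 higher in 5 of 8 libraries. A wide step followed between Dazl and Boll, whose ranges did not overlap. Below it Boll, Celf1 and Ddx25 lay close together: Boll was higher than Celf1 in 6 of 8 libraries and Celf1 higher than Ddx25 in 4 of 8. Ddx25 exceeded Cpeb2, Cpeb2 exceeded Cpeb1 and Cpeb1 exceeded Nanos1 in 8 of 8 libraries each. Together the 10 genes took 0.482% to 0.594% of the fragments in the fl/fl testes and 0.432% to 0.585% in the cKO testes.

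**Figure D2:**
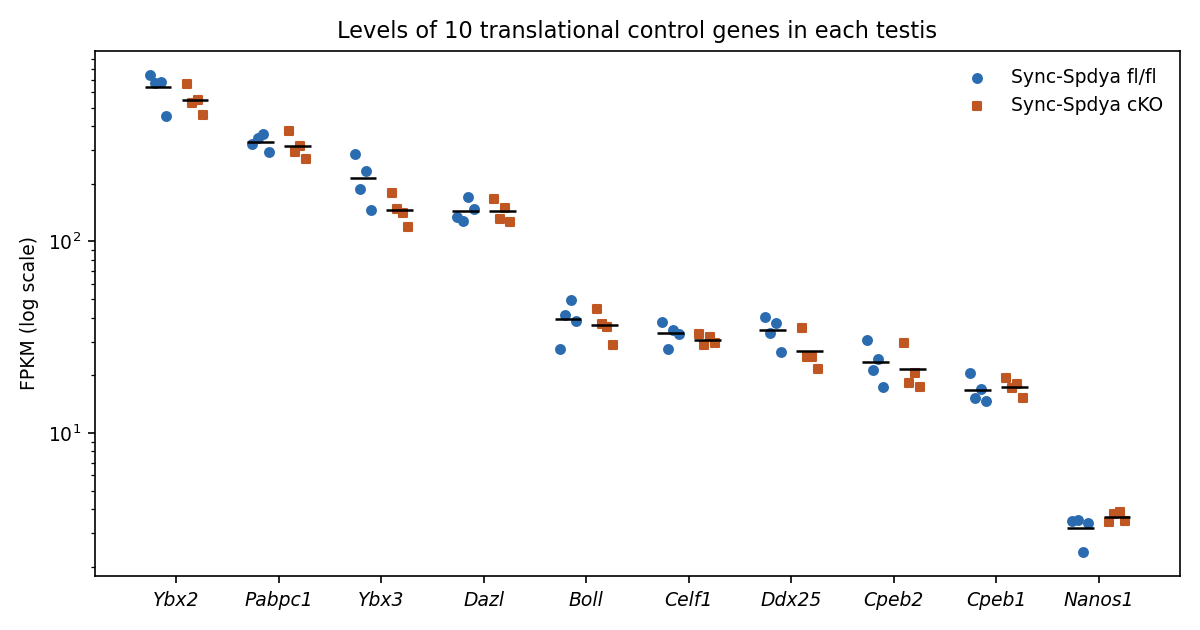
FPKM (logarithmic axis) of the 10 genes in each library, with blue circles for the 4 Sync-Spdya fl/fl mice and orange squares for the 4 Sync-Spdya cKO mice, replicates 1 to 4 from left to right, and the group mean as a black line. The 2 groups overlap for every gene, and on this logarithmic axis Ybx3 has the widest gap between its group means, at 214 and 147 FPKM.

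None of the 10 genes was called different between the genotypes (limma with Benjamini-Hochberg adjustment over 12141 genes, called at an adjusted p below 0.05 with more than 1 in log2 fold change, up or down), with adjusted p from 0.441 to 0.978. Of all tested genes, 0.0165% were called in this limma fit (2 genes), so a count of 0 among 10 is what that background gives. The paper used a different test with the same filter and thresholds and reports more differentially expressed genes, all on autosomes. The reason for this difference was not tested. The limma count is therefore not a measure of how many genes changed in these testes. Only Ybx3, which was lower, had an unadjusted p below 0.05, as did 10.9% of tested genes. No member had groups that did not overlap, against 6.24% of tested genes. The 95% intervals of all 10 log2 fold changes lay within 1 in either direction, the widest reaching from -0.99 to -0.034 for Ybx3. In 8 of the 10 the log2 fold change was below 0, as in 48.0% of tested genes, and the median was -0.094 against 0.0097 over all tested genes. When each library was instead centred on pachytene markers without Ybx2, 6 of those 8 (Dazl, Boll, Ybx2, Cpeb2, Pabpc1 and Celf1) came out above 0. All 11 markers had equal weight in this mean of log2 values, although only 8 passed the FPKM filter and 2 had a mean below 1 FPKM. That scaling moved the median of all genes to 0.27, and the same 8 members lay below that median and Cpeb1 and Nanos1 above it. In whole testes, fewer cells that carry a message and less of it per cell cannot be told apart.

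**Figure D3:**
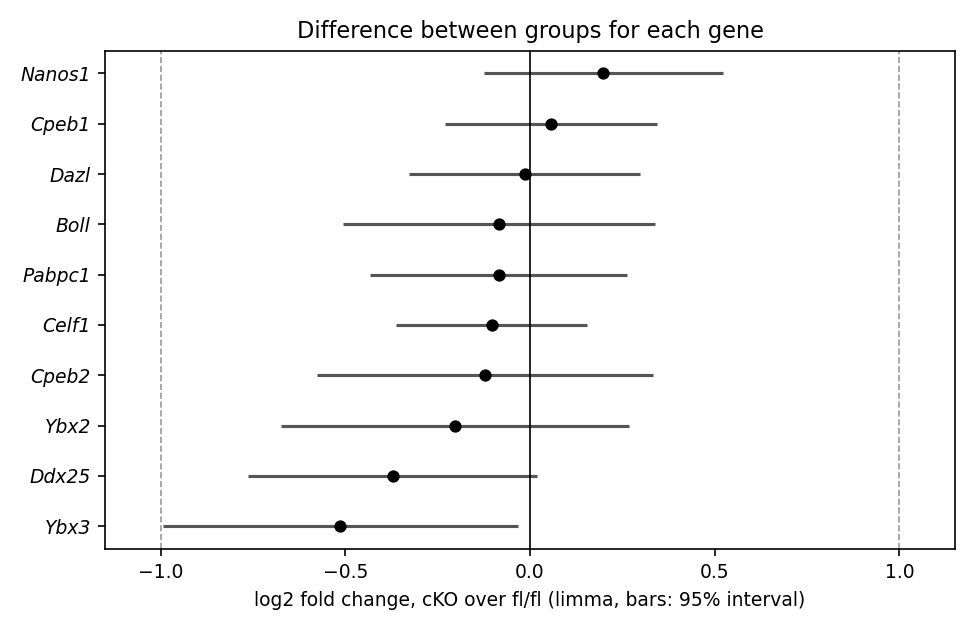
Log2 fold change of each gene, Sync-Spdya cKO over Sync-Spdya fl/fl (points, limma on log2(FPKM + 0.1)), with its 95% interval as a bar and dashed lines at the fold change threshold of 1 in either direction. All intervals lie inside the dashed lines, and only that of Ybx3 does not reach 0.

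Among the Y-box proteins, which store messages, Ybx3 (ENSMUSG00000030189, chr6:131364855-131388476, minus strand) had 288, 189, 234.5 and 145 FPKM in Sync-Spdya fl/fl replicates 1 to 4. In Sync-Spdya cKO replicates 1 to 4 it had 178, 147, 141 and 119 FPKM. Control replicate 1 was the highest and cKO replicate 4 the lowest, and control replicate 4 lay within the knockout range. The means were 214 ± 61.2 and 147 ± 24.4 FPKM (SD, n = 4 each), so that the knockout mean was 68.5% of the control mean. The log2 fold change was -0.51 ± 0.22 (SE, limma adjusted p = 0.441, unadjusted 0.0383), and an exact permutation test over the 70 assignments of libraries, two-sided, gave p = 0.0857, where the smallest possible is 0.0286. Without control replicate 1 the log2 fold change was -0.36 and its unadjusted limma p 0.0753.

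Ybx2 (ENSMUSG00000018554, chr11:69935796-69941605, plus strand), the major packaging protein of stored germ cell messages, had 743, 675.5, 684 and 449 FPKM in the fl/fl testes. It had 661, 531.5, 546 and 457 FPKM in the cKO testes. Control replicate 4 was the lowest of all 8 and the other 3 controls were the highest. The log2 fold change was -0.20 ± 0.21 (SE, 95% interval -0.68 to 0.27, limma adjusted p = 0.786). Leaving out control replicate 4 gave -0.36, and leaving out either control replicate 1 or cKO replicate 4 gave -0.12.

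A ratio of 2 genes within a library does not depend on how libraries are scaled, and Ybx2 against Ybx3 was 1 of 6 ratios compared. It was 2.58, 3.58, 2.92 and 3.10 in Sync-Spdya fl/fl replicates 1 to 4 and 3.70, 3.61, 3.86 and 3.83 in Sync-Spdya cKO replicates 1 to 4. All 4 knockout libraries lay above all 4 controls, although control replicate 2 came close to the lowest of them. The difference of 0.31 on the log2 scale gave an exact permutation p of 0.0286, two-sided and the smallest that 4 against 4 allow, and did not pass Benjamini-Hochberg adjustment over the 6 ratios (adjusted p = 0.171). Leaving out 1 library at a time gave differences of 0.24 (without control replicate 1) to 0.39. Against Ybx1, the Y-box gene of most somatic cells, Ybx2 was at a ratio of 3.26 in control replicate 1 and 1.90 to 2.13 in the other controls, and at 2.05 to 2.20 in the knockout libraries (exact permutation p = 0.971).

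Of the DAZ family, Dazl had the smallest difference between genotypes among the 10 genes. Dazl (ENSMUSG00000010592, chr17:50279395-50293636, minus strand) had 134, 128, 170 and 147 FPKM in the fl/fl testes and 166, 131, 150 and 126 FPKM in the cKO testes. The means of 145 ± 18.4 and 143 ± 18.3 FPKM (SD, n = 4 each) differed by far less than the spread, with a log2 fold change of -0.0145 ± 0.14 (SE, 95% interval -0.33 to 0.30, limma adjusted p = 0.978). Boll (ENSMUSG00000025977, chr1:55248658-55363469, minus strand), which is needed later in spermatogenesis, had 27.3, 41.1, 49.7 and 38.6 FPKM in the controls. Its knockout values were 44.5, 36.9, 35.9 and 28.9 FPKM, all within the control range. Control replicate 1, the highest library for 6 other members, was the lowest for Boll. Its log2 fold change was -0.084 ± 0.19 (SE, 95% interval -0.51 to 0.34, limma adjusted p = 0.908). The Dazl to Boll ratio was 4.92, 3.12, 3.42 and 3.80 in the controls and 3.73, 3.56, 4.18 and 4.37 in the knockouts, which overlapped (exact permutation p = 0.686, adjusted over 6 ratios 0.823).

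The CPE-binding proteins help decide which messages have their poly(A) tail extended. Cpeb1 (ENSMUSG00000025586, chr7:81347026-81455465, minus strand) had 20.6, 15.2, 16.8 and 14.7 FPKM in the fl/fl testes and 19.4, 17.2, 18.04 and 15.2 FPKM in the cKO testes. Its log2 fold change was 0.057 ± 0.13 (SE, 95% interval -0.23 to 0.34, limma adjusted p = 0.908). The knockout values lay inside the control range. Cpeb2 (ENSMUSG00000039782, chr5:43233170-43289724, plus strand) had 30.4, 21.2, 24.4 and 17.4 FPKM in the controls and 29.6, 18.3, 20.7 and 17.3 FPKM in the knockouts, with a log2 fold change of -0.12 ± 0.20 (SE, limma adjusted p = 0.870). Replicate 1 was the highest of each group for both genes. An antisense gene, Gm7854, overlaps 137 of the 7816 exon bases of Cpeb2, and had a mean of only 0.108 FPKM. The ratio of Cpeb1 to Cpeb2 was 0.676, 0.719, 0.691 and 0.849 in the controls and 0.656, 0.936, 0.873 and 0.876 in the knockouts. It was higher in 3 of 4 knockout libraries than in every control, with cKO replicate 1 below all of them (exact permutation p = 0.286, adjusted 0.571).

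Ddx25 (ENSMUSG00000032101, chr9:35536647-35558528, minus strand), the helicase also known as GRTH, had 40.4, 33.3, 37.7 and 26.5 FPKM in the fl/fl testes. It had 35.4, 25.04, 24.9 and 21.6 FPKM in the cKO testes. Of the knockout libraries, 3 lay below every control, and cKO replicate 1 lay among the controls. The log2 fold change was -0.37 ± 0.18 (SE, 95% interval -0.76 to 0.020), with a limma adjusted p of 0.489 and an exact permutation p of 0.143. Ddx25 was set against Ddx4, the germ cell helicase VASA. Their ratio was 0.156, 0.159, 0.163 and 0.132 in the controls and 0.141, 0.1345, 0.130 and 0.128 in the knockouts (difference -0.19 on the log2 scale, exact permutation p = 0.0857, adjusted 0.257). Control replicate 4 lay within the knockout range. Only the knockout mice carried the Ddx4-CreERT2 allele, whose effect on Ddx4 itself was not tested. Ddx4 had 225 ± 26.2 and 200 ± 36.2 FPKM (SD, n = 4 each; limma adjusted p = 0.74).

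Pabpc1 (ENSMUSG00000022283, chr15:36595661-36609668, minus strand), the general poly(A)-binding protein, had 322, 347, 363 and 293 FPKM in the fl/fl testes. The Sync-Spdya cKO values were 378, 293, 315 and 270 FPKM and covered the whole control range. Its log2 fold change was -0.085 ± 0.16 (SE, 95% interval -0.43 to 0.26, limma adjusted p = 0.881). Leaving out 1 library gave -0.18 (without cKO replicate 1) to -0.016 (without cKO replicate 4). Celf1 (ENSMUSG00000005506, chr2:90940382-91019497, plus strand), which promotes the decay of GU-rich messages and is required for spermatogenesis, had 37.8, 27.3, 34.4 and 32.8 FPKM in the controls and 32.8, 28.7, 31.6 and 29.4 FPKM in the knockouts. The knockout values lay inside the control range, and the log2 fold change was -0.10 ± 0.12 (SE, 95% interval -0.36 to 0.15, limma adjusted p = 0.802). This value was -0.036 without control replicate 1, -0.19 without control replicate 2 and -0.014 with array weights. The ratio of Celf1 to its relative Celf2 was 5.50 to 8.52 in the controls and 5.29 to 7.22 in the knockouts (exact permutation p = 0.429, adjusted 0.643). Nanos1 (ENSMUSG00000072437, chr19:60755987-60759913, plus strand) had 3.46, 3.53, 2.38 and 3.37 FPKM in the controls and 3.41, 3.76, 3.88 and 3.46 FPKM in the knockouts. Control replicate 3 was far below the other 7 libraries. The log2 fold change was 0.20 ± 0.15 (SE, 95% interval -0.13 to 0.52, limma adjusted p = 0.678), and 0.069 without control replicate 3.

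**Figure D4:**
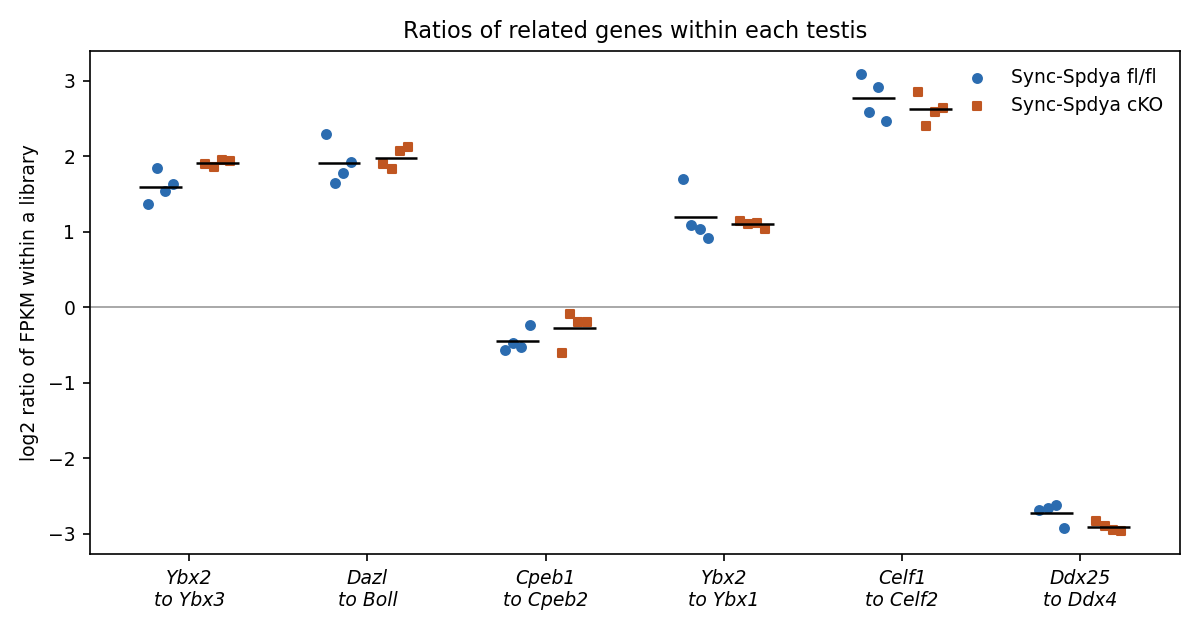
Log2 ratio of the FPKM of 2 related genes within each library, with blue circles for Sync-Spdya fl/fl, orange squares for Sync-Spdya cKO, replicates 1 to 4 from left to right and black lines for group means. Only for Ybx2 to Ybx3 do the groups not overlap, with 2.58 to 3.58 in the controls and 3.61 to 3.86 in the knockouts before the log2.

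Several members were high or low in the same mice. Control replicate 1 gave the highest value of all 8 libraries for 6 of the 10 genes (Ybx2, Ybx3, Ddx25, Cpeb1, Cpeb2 and Celf1), and cKO replicate 4 gave the lowest for 5 (Dazl, Ybx3, Ddx25, Cpeb2 and Pabpc1). Without control replicate 1 the log2 fold changes were -0.36 for Ybx3, -0.12 for Ybx2, -0.29 for Ddx25, -0.25 for Boll, -0.048 for Dazl and -0.097 for Pabpc1. They were -0.036 for Celf1, 0.0145 for Cpeb2, 0.16 for Cpeb1 and 0.24 for Nanos1. Among the other genes named here, the values without it were -0.11 for Ddx4, -0.11 for Paip1, -0.059 for Adad2, 0.47 for Rbmxl2, 0.52 for Eif4ebp1 and 0.17 for Eif4a1. The coefficient of variation among the controls was between 9.19% (Pabpc1) and 28.6% (Ybx3).

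The cell types of the testis were checked by markers. Of all tested genes, 10.9% had an unadjusted p below 0.05 in the limma fit, and 48.0% had a log2 fold change below 0. Of the 11 pachytene markers other than Ybx2, 8 were tested, and with Ybx2 all 9 had log2 fold changes below 0 (median -0.25), 2 of them at an unadjusted p below 0.05 and none called. Summed over the 11, they reached 879 to 1416 FPKM in the fl/fl testes and 685 to 1057 FPKM in the cKO testes. All 8 macrophage markers together reached 16.8 to 28.6 FPKM in the controls and 31.4 to 41.0 FPKM in the knockouts, without overlap, with 7 of 7 tested log2 fold changes above 0, 5 of them at an unadjusted p below 0.05. Summed levels were 36.8 to 60.3 against 53.5 to 74.6 FPKM for 8 Leydig markers (5 of 5 tested above 0, 4 of them at an unadjusted p below 0.05), 45.6 to 76.6 against 75.4 to 105 FPKM for 6 peritubular myoid markers (4 of 4, 1 at that p) and 7.93 to 14.4 against 13.8 to 17.6 FPKM for 7 endothelial markers (5 of 5, 2 at that p). The 12 Sertoli markers reached 1127 to 1512 against 1465 to 1733 FPKM, with 9 of 12 above 0 and none at that p. Germ cell markers of earlier stages overlapped, at 70.7 to 108 against 73.8 to 88.0 FPKM for undifferentiated spermatogonia (5 of 8 above 0, 1 higher at that p), 187 to 271 against 251 to 277 FPKM for differentiating spermatogonia (6 of 8, with 3 higher and 1 lower at that p) and 594 to 831 against 581 to 888 FPKM for early prophase (4 of 9, with 1 higher and 2 lower at that p). The 12 round spermatid markers reached only 7.31 to 14.2 against 8.19 to 10.2 FPKM, and 10 of them had a mean below 1 FPKM. No marker was at 0 in all libraries and none was called. Of these sums only that of the macrophage markers did not overlap between the groups. The part of these marker differences in the values of the 10 genes was not tested.

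**Figure D5:**
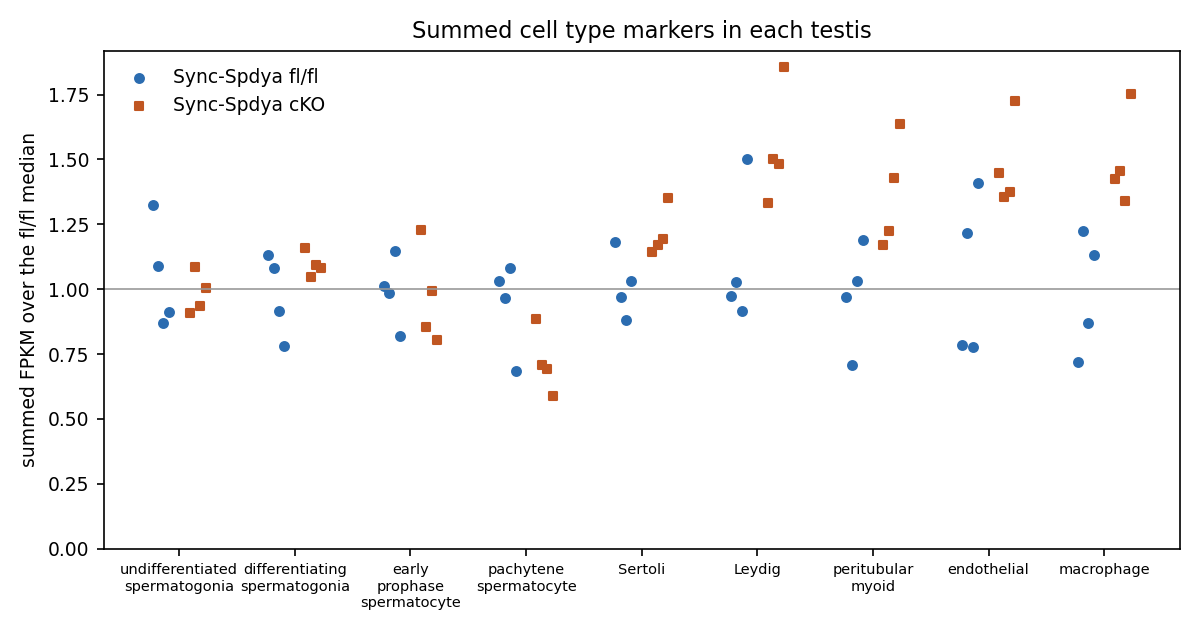
Summed FPKM of the markers of 9 cell types in each library, divided by the median of the Sync-Spdya fl/fl libraries (grey line at 1), with blue circles for Sync-Spdya fl/fl and orange squares for Sync-Spdya cKO, replicates 1 to 4 from left to right; Ybx2 is among the pachytene markers. The 4 cKO libraries lie above all controls for macrophage markers and below 3 of the 4 controls for pachytene markers.

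The machinery around the 10 genes was described by 5 lists, and no gene of any list was called. Counts above and below 0 are for the deposited scaling. Over all tested genes 48.0% were below 0 and 10.9% had an unadjusted limma p below 0.05, which are the shares to set beside each list. Among 19 paralogues of the members, 13 were tested, 7 with a log2 fold change above 0 and 6 below, with a median of 0.0018. The most abundant were Ybx1 (279 ± 54.3 and 255 ± 32.5 FPKM) and Ddx4. At an unadjusted p below 0.05 only Pabpc6 (9.88 ± 2.34 and 6.67 ± 0.814 FPKM, log2 fold change -0.54) and Pabpc2 (11.9 ± 2.20 and 8.38 ± 2.11 FPKM, log2 fold change -0.51) were lower (SD, n = 4 each; limma adjusted p = 0.287 and 0.368). Both are close relatives of Pabpc1, and whether the counting split fragments among the 3 was not tested.

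All 33 genes that lengthen or shorten poly(A) tails were tested, 15 above 0 and 18 below, with a median of -0.0097 and none at an unadjusted p below 0.05. The most abundant were Paip2, an inhibitor of PABPC1 (48.0 ± 3.48 and 51.1 ± 0.876 FPKM), and Cnot1, the scaffold of the main deadenylase complex (44.5 ± 8.06 and 41.0 ± 2.48 FPKM). The smallest p were those of Tob1, which recruits that complex (28.3 ± 3.90 and 24.4 ± 1.18 FPKM, limma adjusted p = 0.567), and Paip1, a PABPC1 partner in initiation (40.7 ± 7.91 and 34.5 ± 3.27 FPKM, limma adjusted p = 0.628).

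Of 47 genes of cap binding and initiation 45 were tested, 22 above 0 and 23 below (median -0.010). Eif4ebp1, which encodes a repressor of cap-dependent translation, had 4.69, 9.77, 6.82 and 7.47 FPKM in the fl/fl testes and 10.6, 11.5, 11.8 and 11.9 FPKM in the cKO testes. The groups did not overlap, and the log2 fold change was 0.71 ± 0.19 (SE, limma adjusted p = 0.230). Eif4a1, a helicase of the cap-binding complex, had 87.3, 108, 107 and 104 FPKM in the controls and 115, 117, 119 and 126 FPKM in the knockouts, again without overlap, with a log2 fold change of 0.24 ± 0.11 (SE, limma adjusted p = 0.482). These 2 genes are shown because they had the smallest p of the list. Of the 45, only 1 (Eif4ebp1) had an unadjusted limma p below 0.05, against 10.9% of all tested genes. Groups did not overlap for 6.24% of all tested genes. Eif1, which helps in the choice of the start codon, had 104 ± 10.2 and 109 ± 9.91 FPKM (SD, n = 4 each).

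Of 56 other germ cell RNA-binding regulators 55 were tested, 19 above 0 and 36 below (median -0.032). The most abundant were Rbmxl2, an X-derived retrogene for a splicing regulator, and Adad2 (118 ± 44.6 and 94.3 ± 23.97 FPKM). Rbmxl2 had 512 FPKM in control replicate 1 and 49.7 to 124 FPKM in the other controls, and 86.3 to 184 FPKM in the knockout libraries. At an unadjusted p below 0.05, Meioc, a partner of the helicase YTHDC2 in meiotic entry and prophase, was lower (68.5 ± 16.3 and 48.7 ± 6.796 FPKM, limma adjusted p = 0.391). Zfp36l1, which promotes the decay of AU-rich messages, was higher (11.97 ± 2.29 and 15.5 ± 1.61 FPKM, limma adjusted p = 0.406). Of 22 messages tied to the members as known or likely targets, 13 were tested and 9 had a mean below 1 FPKM. Of the 13, 10 were below 0 and 3 above (median -0.14), with 1 higher (Ccnb1) and 1 lower (Ldhc) at an unadjusted limma p below 0.05. Ldhc, the lactate dehydrogenase of spermatocytes and sperm, had 524 ± 128 and 313 ± 61.4 FPKM (log2 fold change -0.73, limma adjusted p = 0.287), and Hspa2, a chaperone of spermatocytes, 389 ± 84.9 and 313 ± 62.0 FPKM (limma adjusted p = 0.664). Ccnb1, the mitotic and meiotic cyclin B1, had 13.7 ± 5.92 and 19.12 ± 1.92 FPKM (log2 fold change 0.55, limma adjusted p = 0.444). Ldhc and Hspa2 are also pachytene markers.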

How the data were processed

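The members and gene lists were chosen with earlier results of these data known. The authors deposited FPKM values for 8 libraries. The paper's methods state that a company did the sequencing, that its software gave the FPKM values and that DE genes were called with DESeq2. The submitters' notes name GRCm38 and mm10, and the aligner is not given in the sources used here. Multiplied by gene length, 100% of values above 0 were whole fragments within 0.02. The labels name a column kit for RNA and tamoxifen at RA7.5 and RA8.5, while the paper names Trizol and slightly earlier injections. Groups followed the labels. No value column was left unused.

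limma 3.58.1 in R 4.3.3 (lmFit, eBayes with trend) was run on log2(FPKM + 0.1) with genotype as the sole term, for protein-coding genes whose mean exceeded 1 FPKM in each group. On simulated fragments for this comparison, 196 of the tested genes were changed by 1.5 on the log2 scale. At a dispersion of 0.02, 196 of these 196 were recovered among 12243 genes, with 1 false call. At 0.05, 191 of 196 were recovered among 12196 genes, with 4 false calls. Noise was drawn for each gene on its own, without shifts shared by a library, and smaller changes were not simulated. The simulation checks the fitting step and does not give the power for these testes. Ratios and single genes were tested over the 70 assignments of 8 libraries. For 3′ UTRs the transcript was the basic protein-coding one of the best APPRIS rank, then with the longest 3′ UTR. Named genes were all members, the 2 most abundant and the 2 of smallest p in each list, and partners in ratios. The least different replicates (cKO replicates 2 and 3) still differed by 4.61 times the sampling noise, in mean squared difference. The most different (control replicates 1 and 4) differed by 109 times, and controls 2 to 4 differed from each other by 16.4 to 27.0 times. Alternatives were other pseudocounts, filters and scalings, array weights, voom on recovered fragments, no trend in eBayes, a replicate block, medians for ratios, and leaving out each library. Same-numbered libraries deviated together with correlations of 0.0757 to 0.406, below 0.1 in 1 of 4 pairs. Of the 8 libraries, 5 correlated best with the library of their own number. The paper states that controls were littermates, but the labels give only replicate numbers, so the mice were treated as unpaired and the replicate block was an alternative.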

Additional observations from a re-analysis of the deposited data

Results flagged for a closer look

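In all, 6 values stood far from the other libraries of their group (Dixon's criterion for groups of 4) among 72 groups of values examined, where chance gives about 1 in 20. Nanos1 was at 2.38 FPKM in control replicate 3, against 3.37 to 3.53 FPKM in the other controls. Control replicate 1 gave 3 of the 6: Rbmxl2 at 512 FPKM, Eif4a1 at 87.3 FPKM and a mitochondrial share of fragments of 0.464%. Adad2 was at 130.0 FPKM in cKO replicate 1, against 78.6 to 85.2 FPKM in the other knockouts. Celf2 was at 5.97 FPKM in control replicate 4, against 4.44 to 4.56 FPKM in the other controls.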

How the results depend on the processing

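No member was called under any alternative. The number of members at an unadjusted p below 0.05, 1 as reported, was 0 without the FPKM filter and with pachytene marker centring, and 2 with array weights and with the replicate block (Ybx3 and Ddx25). With the replicate block the unadjusted limma p was 0.0049 for Ybx3 and 0.00715 for Ddx25 (adjusted p = 0.154 and 0.175). Leaving out 1 library gave 0 to 2: 0 when control replicate 1 or 3 or cKO replicate 2, 3 or 4 was left out, and 2 without control replicate 4 or cKO replicate 1. Over all tested genes, 2 were called as reported and 0 with the replicate block, which changed no call of a gene named here. With array weights 57 were called, none of them a member, and adjusted p were 0.0382 for Pabpc6, 0.0373 for Ldhc and 0.0445 for Eif4ebp1, whose fold changes stayed under the threshold.

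The log2 fold change of Dazl was 0.0070 with autosomal median centring and 0.064 after rescaling to TPM. Pachytene marker centring, which moved the median of all genes from 0.0097 to 0.27, gave 0.25 for Dazl, 0.18 for Boll, 0.059 for Ybx2, 0.14 for Cpeb2, 0.18 for Pabpc1, 0.16 for Celf1, 0.15 for Ybx1, 0.079 for Ddx4, 0.16 for Cnot1, 0.058 for Tob1, 0.038 for Paip1 and 0.072 for Rbmxl2. The Ybx2 to Ybx1 difference was 0.051 with medians of libraries. Leaving out 1 library gave -0.088 to 0.065 for Dazl, -0.25 to 0.040 for Boll, -0.0027 to 0.16 for Cpeb1, -0.29 to 0.0145 for Cpeb2, -0.20 to 0.0092 for Cnot1 and -0.65 to 0.47 for Rbmxl2 (0.47 without control replicate 1). For ratios it gave -0.18 to 0.085 for Ybx2 to Ybx1 and -0.019 to 0.20 for Dazl to Boll. The cause of these shifts was not tested. Of the other values under alternatives, 694 kept their direction and their side of the threshold or moved little.

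With 4 mice per group the median standard error was 0.15 on the log2 scale, and smaller differences than a 2-fold change could not be called by definition. In the reported fit only 2 genes had an adjusted p below 0.05 and both were called, so the fold change threshold removed none. FPKM give no isoforms, and RNA levels say nothing of translation itself.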
